A study of Homo sapiens with 4 samples.

Results

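Genes for 9 proteins of the plasma cell surface, against which antibodies or engineered T cells are directed, were followed in myeloma cells given the compound OSSL_325096. They were TNFRSF17, GPRC5D, FCRL5, CD38, SDC1, SLAMF7, CD48, LY9 and ITGB7, chosen by name as drug targets, without a rule on measured values but with earlier results of these data known, and they are 9 of the 57773 genes in the authors' deposited table. RNA was sequenced from the established human myeloma lines KMS12PE and KMS11 after exposure to 1 µM OSSL_325096, named in the sources by this code alone, or to the solvent DMSO. The OSSL_325096 group held 1 KMS12PE and 1 KMS11 library, and the DMSO group likewise held 1 of each, so that there were 4 libraries. Both lines were grown in RPMI-1640 with serum, and the sources used here do not give the length of exposure. Single libraries were not analysed here. For each gene the table gives the RPKM (reads scaled to transcript length and library size) of whichever treatment group had the higher mean, and for the 23130 genes above 0 RPKM also 1 log2 fold change over both lines and 1 p-value. No column says which group that was. A positive log2 fold change means that OSSL_325096 had the higher expression, following the order of the treatments in the table's title. The depth of the libraries is unknown, and nothing in the labels says whether they came from separate cultures.

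Plasma cells lose most B cell surface proteins as they mature and gain others. TNFRSF17 encodes BCMA, the receptor through which the cytokines APRIL and BAFF sustain long-lived plasma cells. SDC1 encodes CD138, a heparan sulfate proteoglycan that is the standard marker of the cell type, and CD38 encodes an ectoenzyme that consumes NAD. GPRC5D is an orphan receptor of the G protein-coupled class, FCRL5 an Fc receptor-like protein, and SLAMF7, CD48 and LY9 are members of the SLAM receptor family, which act between immune cells. ITGB7 encodes the integrin beta 7 chain, which pairs with alpha 4 or alpha E chains in gut homing. The density of such an antigen on the cell is one of the things that treatments against it depend on.

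Marker genes were checked against the label of the cells. Plasma cell markers reached at least 1 RPKM for 9 of 10 genes matched in the authors' deposited table, and their levels ran between 0.368 RPKM for CD27 and 386 RPKM for IGJ, the immunoglobulin joining chain. TNFRSF17, SDC1 and CD38 are on this marker list and also among the antigens, so the check is not fully separate from them. Of 7 mature B cell markers 1, CR2, reached 1 RPKM, and MS4A1, the gene of CD20, was listed at 0. T cell markers reached 1 RPKM for 2 of 5 genes, CD4 and CD8A, with CD3D listed at 0, and the 4 monocyte and 4 stromal markers were each below 0.1 RPKM, with FCGR3A, COL3A1 and DCN listed at 0. Summed over each list, the plasma cell markers had 1227 RPKM, the mature B cell markers 3.40 RPKM and the T cell markers 7.84 RPKM.

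The antigens differed widely in level. ITGB7 had 420 RPKM in its higher group in the authors' deposited table, and ranked 72 of the 11324 genes with at least 1 RPKM. TNFRSF17 followed with 149.9 RPKM (rank 258) and SDC1 with 89.7 RPKM (rank 445) in the authors' deposited table. On this scale, which corrects for length, these 3 antigens were listed well above the others, with no spread by which to judge the gap. CD38 had 11.4 RPKM, GPRC5D 6.87 RPKM, CD48 6.28 RPKM, SLAMF7 6.26 RPKM and LY9 2.06 RPKM in the authors' deposited table, again in the higher group. CD48 and SLAMF7, neighbouring genes, were nearly equal. FCRL5 was listed with only 0.00692 RPKM in the authors' deposited table, far under the minimum of 1 RPKM used below, and its fold change is not counted. The spread of these levels over libraries is not in the table, so neighbours in this order cannot be said to differ.

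With OSSL_325096, the genes of GPRC5D, CD38 and BCMA were listed at least 1.5-fold lower than with DMSO, that of CD138 was listed 1.52-fold higher, and those of the SLAM receptors and integrin beta 7 lay within 1.5-fold in the authors' deposited table. None of these differences passed a test. Of the 8 antigens with at least 1 RPKM, 6 had a log2 fold change below 0 and 2 above, and the median log2 fold change over them was -0.15, against 0.01 over all 11324 genes. Of all genes, 49.0% lay below 0 and 51.0% above. At a size of 1.5-fold, 3 antigens were lower, GPRC5D, CD38 and TNFRSF17, where 4.95% of all genes were, and 1 antigen was higher, SDC1, where 4.95% of all genes were. With Benjamini-Hochberg adjustment of the deposited p-values over the 11324 genes, 0 antigens and 0.0% of the genes passed 0.05, and with unadjusted p-values 0 antigens and 0.0442% of the genes did. The deposited false discovery rate was 0.999995 for each of the 23130 genes that had one. At other limits of size, 1 antigen was at least 2-fold lower (1.09% of all genes) and 0 at least 2-fold higher (0.989%), while 3 were at least 1.2-fold lower (19.9%) and 2 at least 1.2-fold higher (21.2%). With no minimum on RPKM, 4 were at least 1.5-fold lower, where 18.0% of the 23130 genes were, and 1 was at least 1.5-fold higher, where 19.8% were. After the regression on GC content, length and level described at the end, 2 were at least 1.5-fold lower (3.96% of genes) and 0 higher (3.43%). An implied standard error (SE) was derived from each deposited fold change and p-value on the assumption of a normal test with both sides counted; the authors' own test is not named. It was larger than the absolute log2 fold change for 9 of 9 antigens. The share of all genes for which this holds was not counted, so the count cannot be read as a trait of the antigens.

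**Figure D1:**
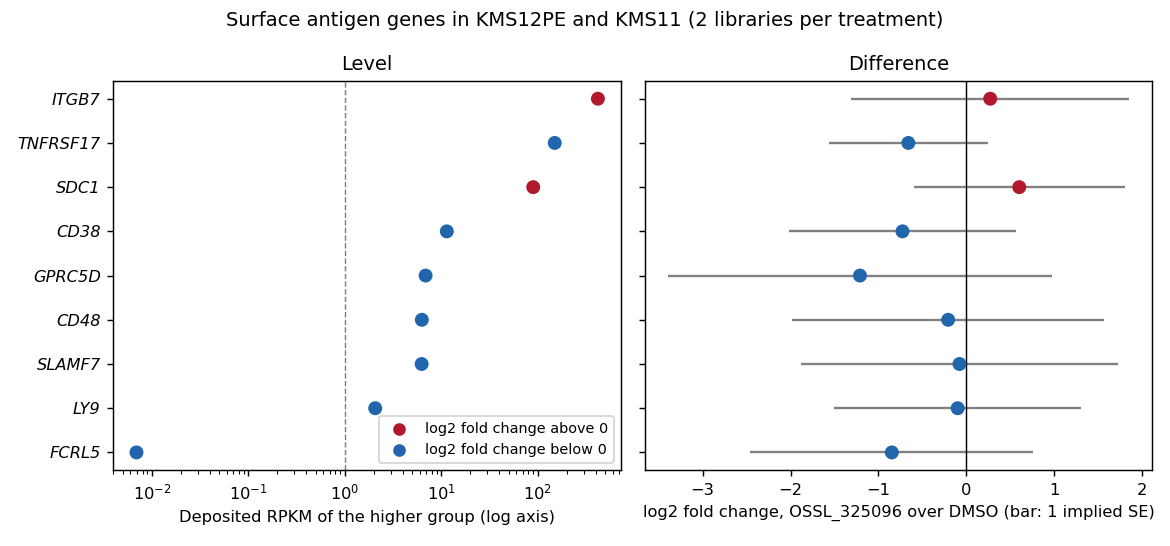
Levels (left, RPKM of the higher treatment group, log axis, dashed line at 1 RPKM) and log2 fold changes of OSSL_325096 over DMSO (right, bars 1 implied SE) of the 9 antigen genes, coloured by the sign of the fold change. ITGB7, at 420 RPKM, and SDC1 are the members with a fold change above 0, and every bar crosses 0.

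Among the targets of T cell engaging treatments, the authors' deposited table listed TNFRSF17 (chromosome 16, 12058964 to 12061925, forward strand, hg19) at -0.66 on the log2 scale, 1.58-fold lower with OSSL_325096 (unadjusted p = 0.468). Its implied SE was 0.91, which puts the ratio of OSSL_325096 to DMSO between 0.185 and 2.17 (95% interval). Of all genes, 88.0% had a larger implied SE, and TNFRSF17 had the smallest of the antigens. The implied SE restates the deposited p-value and is not a spread measured over libraries. Even so, a 3.43-fold difference would have been needed for an unadjusted p of 0.05. The log2 fold change of TNFRSF17 was lower than that of all but 3.66% of the genes. The antisense gene RP11-166B2.1 overlaps TNFRSF17 and was listed in the authors' deposited table at 3.48 RPKM, with -0.19 on the log2 scale. The sources used here do not say whether counting used strand, so reads of the pair cannot be told apart.

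GPRC5D (chromosome 12, 13093709 to 13105081, reverse strand, hg19) had the lowest fold change of the 8 antigens, -1.21 on the log2 scale in the authors' deposited table, 2.31-fold lower with OSSL_325096 (unadjusted p = 0.580). It ranked 70 from the bottom among the 11324 genes. Its implied SE, 2.19, exceeded that of 99.4% of all genes, and the interval of the ratio of OSSL_325096 to DMSO ran between 0.0222 and 8.42. GPRC5D thus combined the lowest fold change of the group with its largest implied SE. A 19.5-fold difference would have been needed for an unadjusted p of 0.05. The overlapping antisense gene RP11-392P7.6 had 0.229 RPKM in the authors' deposited table. FCRL5 (chromosome 1, 157483167 to 157522310, reverse strand, hg19), the third of these targets, had -0.85 in the authors' deposited table (unadjusted p = 0.599, implied SE 1.61) at the level given above.

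Of the antibody targets, CD38 (chromosome 4, 15779898 to 15854853, forward strand, hg19) was listed at -0.73 on the log2 scale in the authors' deposited table, 1.65-fold lower with OSSL_325096 (unadjusted p = 0.573, implied SE 1.29). The ratio of OSSL_325096 to DMSO had an interval between 0.105 and 3.49. SDC1 (chromosome 2, 20400558 to 20425194, reverse strand, hg19) was listed on the other side of 0, with 0.60 on the log2 scale in the authors' deposited table, 1.52-fold higher with OSSL_325096 (unadjusted p = 0.616, implied SE 1.203). Its ratio had an interval between 0.296 and 7.79. SDC1 lay just past the limit of 1.5-fold, followed by TNFRSF17 at 1.58-fold, and the nearest antigen that did not reach it was ITGB7 at 1.21-fold in the authors' deposited table.

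The promoters of these antigens are shown because both kinds of direction are among them: GPRC5D and CD38, listed lower, and SDC1, listed higher. They are the bases before the RefSeq transcription start (windows from the GRCh38.p14 table, placed on hg19 by an exact match), 5′ to 3′ on the gene's strand, with motif matches, found only for GPRC5D, in capitals. The CD38 sequence is cut so that at most 30 bases lie inside the gene's region in the table. For SDC1, the RefSeq table also has an inner window that is not shown.
GPRC5D, chr12:13105105-13105354, reverse strand: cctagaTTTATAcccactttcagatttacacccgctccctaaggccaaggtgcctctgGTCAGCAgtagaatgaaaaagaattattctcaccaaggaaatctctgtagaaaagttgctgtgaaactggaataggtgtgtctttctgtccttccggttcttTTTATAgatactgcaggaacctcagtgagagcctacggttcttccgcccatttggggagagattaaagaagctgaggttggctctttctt
CD38, chr4:15779701-15779927, forward strand: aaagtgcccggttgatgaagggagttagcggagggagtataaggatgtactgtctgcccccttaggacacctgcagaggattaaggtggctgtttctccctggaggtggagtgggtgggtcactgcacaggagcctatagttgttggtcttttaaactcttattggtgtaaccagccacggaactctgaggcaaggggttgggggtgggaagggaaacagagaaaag
SDC1, chr2:20425237-20425486, reverse strand: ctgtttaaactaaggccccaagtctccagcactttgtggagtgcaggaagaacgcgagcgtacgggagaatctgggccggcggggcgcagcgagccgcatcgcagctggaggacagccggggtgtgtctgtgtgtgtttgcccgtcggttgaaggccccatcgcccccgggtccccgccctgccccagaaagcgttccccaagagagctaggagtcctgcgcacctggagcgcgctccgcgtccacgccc

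The 250 bases upstream of the start were searched on both strands for 4 motifs. The GPRC5D window held the MAF half-site TGCTGAC, present in 3.43% of the 35116 RefSeq windows of this length, and the TATA box letters TATAAA at 2 places, present in 10.7%, each read on the opposite strand. Neither was found in the windows of FCRL5, CD38, SDC1, CD48 or ITGB7. The E-box CACGTG (6.34% of all windows) and the XBP1 element TGACGTG (1.68%) were found in none of the windows of GPRC5D, FCRL5, CD38, SDC1, CD48 and ITGB7. The windows also differed in composition: the SDC1 sequence above holds 23 CpG dinucleotides, against 4 for GPRC5D and 3 for CD38, while the median over all windows was 11. A match describes the letters and shows no binding. Whether motifs or composition go with the direction of a fold change was not tested.

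The SLAM receptors had fold changes close to 1. CD48 (chromosome 1, 160648536 to 160681641, reverse strand, hg19), a lipid-anchored ligand of the family, stood in the authors' deposited table at -0.21 on the log2 scale (unadjusted p = 0.907, implied SE 1.77). SLAMF7 (160709037 to 160724611, forward strand), the target of elotuzumab, had -0.08 in the authors' deposited table (unadjusted p = 0.966, implied SE 1.80). LY9 (160765864 to 160798051, forward strand), also called CD229, had -0.10 in the authors' deposited table (unadjusted p = 0.944, implied SE 1.41). The smallness of these values does not show that the genes were unaffected: the ratio of OSSL_325096 to DMSO had an interval between 0.0818 and 11.0 for SLAMF7, between 0.0777 and 9.66 for CD48 and between 0.138 and 6.31 for LY9. The 3 genes lie within 149.5 kb, with gaps of 27.4 kb and 41.3 kb between them. With their middle within 650 kb of the lower end of CD48, 23 other genes of at least 1 RPKM had log2 fold changes between -0.37 and 0.53 in the authors' deposited table, and 0 of the 26 genes of the region were 1.5-fold from 1. Among all 11324 genes, 4.95% were 1.5-fold lower and 4.95% were 1.5-fold higher. The other SLAM receptors and their adaptors were below 1 RPKM in 8 of 8 genes, the highest being SLAMF8 at 0.125 RPKM in the authors' deposited table.

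**Figure D2:**
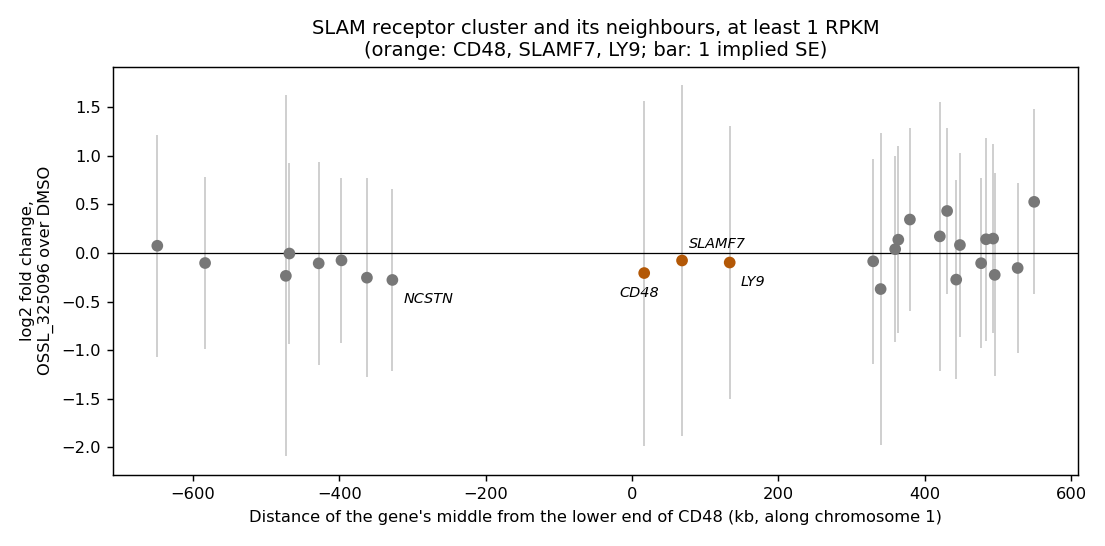
Log2 fold change of OSSL_325096 over DMSO (vertical axis, bars 1 implied SE) of genes of at least 1 RPKM by distance along chromosome 1 from the lower end of CD48 (kb). CD48, SLAMF7 and LY9 (orange) lie between -0.21 and -0.08, within the range of the 23 neighbours (grey), and their bars are among the longest.

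ITGB7 (chromosome 12, 53585102 to 53601091, reverse strand, hg19), the antigen with the highest level, was listed at 0.27 on the log2 scale in the authors' deposited table, 1.21-fold higher with OSSL_325096 (unadjusted p = 0.863, implied SE 1.58). The interval of its ratio ran between 0.141 and 10.4. Its partner chain ITGA4 (10.6 RPKM) had 0.07 and ITGAE, the alpha E chain (1.09 RPKM), -0.01 in the authors' deposited table. A wider list held 12 genes of integrin chains, ligands and related adhesion proteins, not all of them partners of beta 7. Of the 12, 7 had at least 1 RPKM, 4 lower and 3 higher, with 0 at 1.5-fold. Among all 11324 genes, 49.0% lay below 0, 4.95% were 1.5-fold lower and 4.95% were 1.5-fold higher. ITGB1, the beta 1 chain (32.7 RPKM), had -0.54, ITGAL, an integrin alpha chain of leukocytes, -0.47 and FERMT3, an integrin activator of blood cells, 0.34 in the authors' deposited table.

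**Figure D3:**
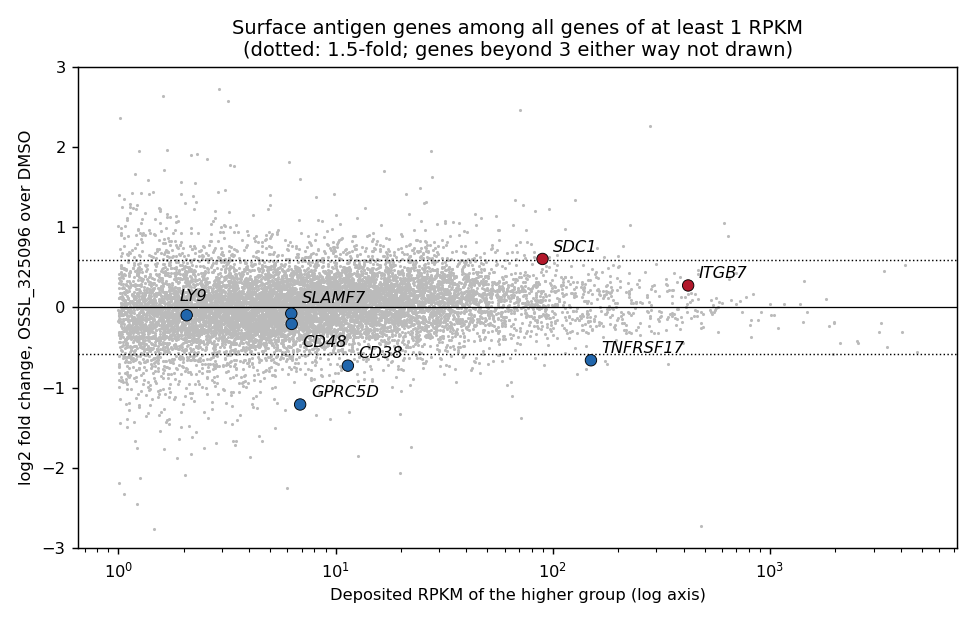
Log2 fold change of OSSL_325096 over DMSO against the RPKM of the higher group (log axis) for genes of at least 1 RPKM (grey; 9 genes beyond 3 either way are not drawn), with 1.5-fold marked by dotted lines and the 8 antigens labelled. GPRC5D, CD38 and TNFRSF17 lie below the lower line and SDC1 on the upper one.

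The implied SEs of the antigens were themselves uneven. Over all 11324 genes the median implied SE was 1.099, and 7 of the 8 antigens lay above it, with a median of 1.495. Implied SEs above 1.6 were found for 18.2% of all genes and for 3 of the 8 antigens, CD48, SLAMF7 and GPRC5D. The limit of 1.6 was not part of the plan, and ITGB7, at 1.58, lay just under it. FCRL5, at 1.61, is not among the 8 because of its low level. Some genes that translocations to the immunoglobulin locus are known to switch on in KMS12PE or KMS11 alone had values above 1.6 too. They were 1.83 for CCND1, which KMS12PE carries translocated, and 2.002 for FGFR3 and 1.94 for MAF, which KMS11 carries translocated. WHSC1, now NSD2, another gene at the FGFR3 breakpoint of KMS11, did not have such a value (1.04). Whether the antigens with large implied SEs differ in level between KMS12PE and KMS11 was not tested, because it needs values of single libraries.

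**Figure D4:**
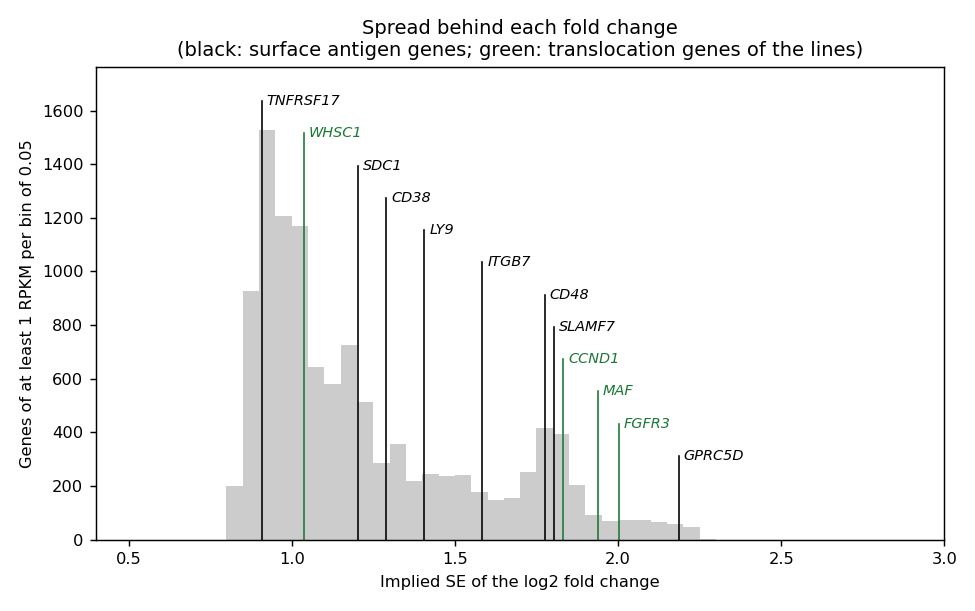
Implied SE of the log2 fold change (horizontal axis) for genes of at least 1 RPKM (grey bars, genes per bin of 0.05), with the 8 antigens (black) and 4 translocation genes of the lines (green). TNFRSF17, at 0.91, lies in the main peak, while CD48, SLAMF7 and GPRC5D, between 1.77 and 2.19, lie above 1.6 with CCND1, MAF and FGFR3. ITGB7, at 1.58, lies just under 1.6, and WHSC1, the other translocation gene, lies at 1.04.

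Genes that act with the antigens were compared next, in 9 lists. As for the antigens, 0 members had an adjusted or an unadjusted p under 0.05. The counts of each list stand beside these shares of all 11324 genes: 49.0% below 0, 4.95% 1.5-fold lower and 4.95% 1.5-fold higher. For BCMA, 9 of 10 genes for ligands, sister receptors and subunits of gamma-secretase, the protease that sheds BCMA from the cell, had at least 1 RPKM. Of these 4 were lower and 5 higher, 2 of them by 1.5-fold, PSEN2, a catalytic subunit, at 0.75 (implied SE 1.12) and TNFRSF13B, the gene of TACI, at 0.64 (implied SE 1.81) on the log2 scale in the authors' deposited table. APH1A, the most abundant subunit gene (106.8 RPKM), had 0.08 in the authors' deposited table. The ligand genes TNFSF13 (5.19 RPKM), for APRIL, and TNFSF13B (0.128 RPKM), for BAFF, had -0.28 and 0.50 in the authors' deposited table. On the log2 scale, the median of the list was 0.02, and -0.042 after the regression on GC content, length and level described below.

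For SDC1, 17 of 20 genes of other syndecans and of heparan sulfate synthesis had at least 1 RPKM, 8 lower and 9 higher, with a median of 0.0085, and of -0.0057 with no minimum on RPKM. HS6ST1, a heparan sulfate sulfotransferase, had 0.59, just past 1.5-fold, SDC4, another syndecan, -0.48, EXTL2, a glycosyltransferase, -0.49 and B3GALT6, a linker enzyme with the highest level of the list (39.4 RPKM), 0.32 in the authors' deposited table. For CD38, the list of NAD and adenosine genes had 7 symbols, of which 6 were matched and PECAM1 was not. At least 1 RPKM was reached by 2 of the 6. They were NAMPT at -0.28 and NMNAT1 at 0.09, both NAD synthesis enzymes, in the authors' deposited table. The relatives of FCRL5 and GPRC5D were below 1 RPKM in 7 of 7 and in 3 of 3 genes, the highest being FCRLB at 0.812 RPKM and GPRC5B at 0.253 RPKM in the authors' deposited table.

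Other surface antigens that have been tried as targets in myeloma or B cell cancers had at least 1 RPKM in 21 of 30 genes, 12 lower and 9 higher, with 3 genes 1.5-fold lower and 1 gene 1.5-fold higher, with a median of -0.22. Among all 11324 genes, 49.0% lay below 0, 4.95% were 1.5-fold lower and 4.95% were 1.5-fold higher. TNFRSF8, the gene of CD30, had 1.95 (implied SE 1.57, unadjusted p = 0.212) in the authors' deposited table. CD200, an inhibitory ligand, had -1.30 (implied SE 2.16), SEMA4A -0.76 (implied SE 1.71) and CD74, the invariant chain of antigen presentation, 0.17 at 419 RPKM in the authors' deposited table. The third 1.5-fold lower gene, CCR10, a chemokine receptor of plasma cells, had -0.59 in the authors' deposited table and was named after its value was seen. Transcription factors of plasma cells and B cells had at least 1 RPKM in 9 of 15 genes, 7 lower and 2 higher, with a median of -0.14. IRF4, on which myeloma cells depend, had -0.67 at 174 RPKM (implied SE 1.03), BACH2, a B cell repressor, -0.69, SPIB 0.46 and XBP1, the secretory regulator, -0.02 at 179.8 RPKM in the authors' deposited table.

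**Figure D5:**
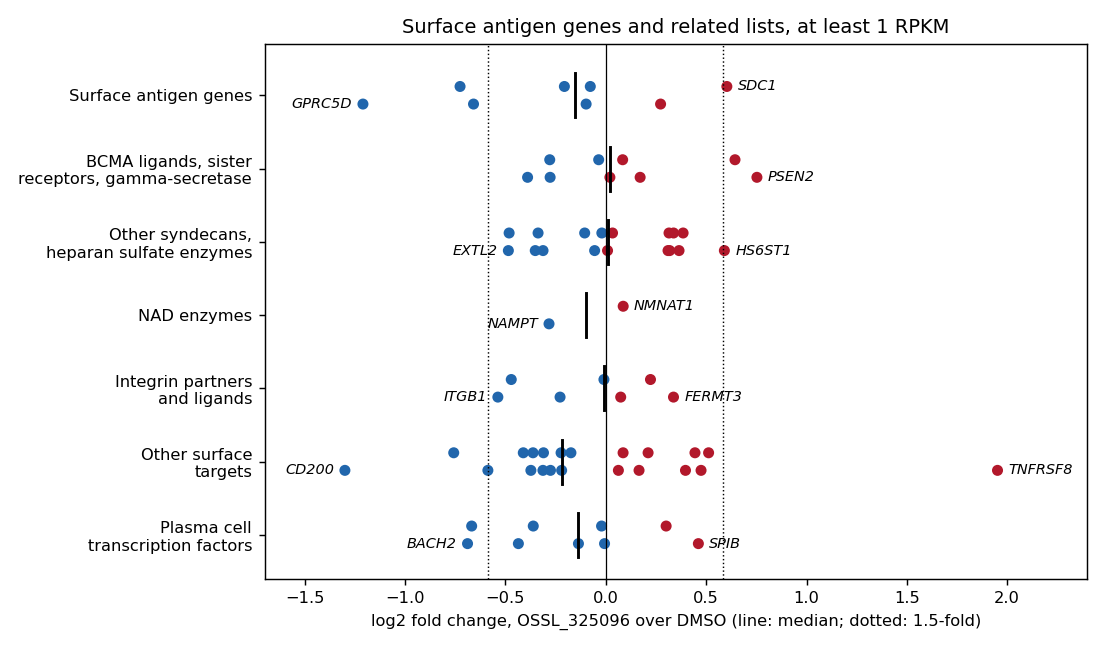
Log2 fold change of OSSL_325096 over DMSO for each gene of at least 1 RPKM in the antigen group and in 6 related lists (black line, median; dotted lines, 1.5-fold; red, higher and blue, lower with OSSL_325096). The antigens' median is -0.15, and the list medians run between -0.22 and 0.02, with TNFRSF8 at 1.95 far to the right.

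The antigens' chromosomal neighbours were listed on both sides of 0. Within 500 kb of the 9 genes, 76 other genes had at least 1 RPKM, 41 lower and 35 higher, with 4 genes 1.5-fold lower and 1 gene 1.5-fold higher, with a median of -0.06 (0.0016 with no minimum on RPKM). Among all 11324 genes, 49.0% lay below 0, 4.95% were 1.5-fold lower and 4.95% were 1.5-fold higher. Around TNFRSF17, 4 neighbours were lower and 5 higher, with log2 fold changes between -0.39 and 0.23 in the authors' deposited table. Around GPRC5D, 8 of 9 were lower, between -1.75 and 0.12, with a median of -0.10 and 1 at least 1.5-fold lower. Around CD38, 3 of 3 were lower, between -0.62 and -0.31, with a median of -0.33 and 1 at least 1.5-fold lower. Around ITGB7, 8 were lower and 15 higher, between -1.28 and 1.24, with a median of 0.07. Of these, 2 were at least 1.5-fold lower and 1 at least 1.5-fold higher. Around SDC1, 4 were lower and 3 higher, between -0.46 and 0.30 in the authors' deposited table.

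Fold changes also followed the GC content of the transcripts. The antigens of at least 1 RPKM did not cover its whole range, with none in the lowest or the second highest class. The median log2 fold change was -0.12 in the GC class of TNFRSF17, CD48 and SLAMF7, the second lowest of 5 equal classes, near 0 (-0.0028) in the middle one, that of GPRC5D, CD38 and LY9, and 0.23 in the highest class, which holds SDC1 and ITGB7. After a regression on GC content, length and level, GPRC5D had -1.25, CD38 -0.70, TNFRSF17 -0.54, SDC1 0.40, ITGB7 0.13, CD48 -0.09 and LY9 -0.08, the same signs as before, while SLAMF7 turned to 0.0056. GPRC5D and CD38 remained beyond 1.5-fold, while TNFRSF17 and SDC1 no longer reached that limit.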

How the data were processed

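RNA from 4 libraries was sequenced. Per the series' design text, reads were mapped to hg19, and Biomedical Genomics Workbench 5 gave the RPKM values and compared the treatments; per the labels' protocols, mRNA was captured with oligo(dT) beads. The sources used here do not give the counting rule, strand setting, scaling, model or read depth. The authors deposited RPKM as the larger of the treatment means, a log2 fold change, the same fold as a signed score, and p-values (unadjusted, false discovery rate and Bonferroni), per the file headers. The planned fit of single libraries was replaced by these values, since 0 columns held one. Of 57773 genes, 23130 had a fold change and 11324 at least 1 RPKM. Benjamini-Hochberg adjustment over these, implied SEs, intervals (95%, normal) and a regression on GC content, length and RPKM (degree 3, 11104 genes, 15.8% of variance; features from GENCODE 44 transcripts) were computed with scipy 1.17.1, numpy 2.4.6 and pandas 2.3.3 (Python 3.11.15). The code for the adjustment, the implied SE and the regression was checked on simulated data. Those data were made with the same normal formula, so the check does not test whether that formula holds for the deposited p-values. The members and lists were chosen with earlier results of these data known; 1 of 112 list symbols, PECAM1, was not matched. From each list the 3 largest absolute fold changes and the highest RPKM were named; ITGA4, ITGAE, TNFSF13, TNFSF13B and CCR10 were added after their values were seen. The value of 1 list member is not reported here. RefSeq promoter windows matched 6 antigens. Alternatives were the RPKM minimum, the fold limit, centring, the trend and the distance to neighbours.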

Additional observations from a re-analysis of the deposited data

How the results depend on the processing

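No paired analysis was possible because the deposited table holds no values of single libraries; for the same reason the cell line as a block and leaving out each library were not run. Centring on the median of all genes, which moved values by 0.01, kept the signs of the 8 antigens of at least 1 RPKM and their counts at 1.5-fold. With a limit of 2-fold, 1 antigen was lower and 0 were higher, and at 1.2-fold 3 were lower and 2 higher. After the regression on GC content, length and level, 2 were at least 1.5-fold lower and 0 higher, and SLAMF7 turned to 0.0056. With no minimum on RPKM, FCRL5 joined the lower antigens, which made 4, the median over the antigens was -0.21, and that of neighbouring genes turned to 0.0016. The regression also turned the medians of the BCMA partner list to -0.042, of the NAD list to 0.040 and of the integrin list to 0.051, and with no minimum on RPKM that of the syndecan list was -0.0057; the causes were not tested. The antigens with an adjusted p under 0.05 were 0 with no minimum, with a minimum of 5 RPKM, and by the deposited false discovery rate, as were those with an unadjusted p under 0.05. The depth of the libraries is unknown. With 2 libraries per treatment from different lines, the antigens needed between 3.43-fold and 19.5-fold for an unadjusted p of 0.05. These sizes were derived from the deposited p-values, so they restate them and are no separate measure of what could be detected.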
